A study of Mus musculus with 2 samples.

Results

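Epicardial and mesothelial cells of the right ventricle were identified here as droplet barcodes carrying transcripts of the mesothelial genes Msln, Upk3b, Wt1 and Lrrn4. A barcode was a member if it held at least 500 unique molecular identifiers (UMIs, counted transcripts), if Ttn and Ryr2, which mark heart muscle cells, made up less than 2% of its UMIs, and if the 4 mesothelial genes gave at least 3 UMIs with at least 1 from Msln or Upk3b. In all, 704 of the 22144 barcodes with at least 500 UMIs were members. Since members were chosen by their Msln, Upk3b, Wt1, Lrrn4, Ttn and Ryr2 counts, the levels of these genes are given below as a description with no test.

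The study made single-cell RNA libraries from the right ventricle of C57/BL6J mice, with a title that names p300/CBP and the handling of calcium by cardiomyocytes. There are 2 libraries of 1 group, called library 1 and library 2. The labels give the genotype as CBP flox/flox, p300 flox/flox and Trap flox/flox, spelled trap in library 2, with AAV9 injected at postnatal day 1 to knock out p300/CBP and harvest at postnatal day 21. Every mouse is labelled as treated, there is no control sample, and the promoter or recombinase that the virus carried and the number of animals per library are not given in the labels, so nothing below is an effect of the knockout. The labels also name frozen tissue, collagenase digestion and enrichment of CD45-positive cells, which selects leukocytes.

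The epicardium is the mesothelial sheet on the outer surface of the heart, and the pericardium, pleura and peritoneum are lined by the same kind of epithelium. Mesothelial cells are joined by tight and adherens junctions, rest on a basement membrane, express keratins and carry a lubricating glycocalyx on their free surface. In the fetal heart, epicardial cells also undergo an epithelial to mesenchymal transition that gives rise to fibroblasts and mural cells, and they release retinoic acid and growth factors towards the muscle. The genes that chose the members serve the surface and the identity of this layer. Msln encodes the cell surface protein mesothelin, Upk3b the membrane protein uroplakin 3b, Wt1 a zinc finger transcription factor, and Lrrn4 a leucine-rich repeat membrane protein. On GRCm38, Msln lies on chromosome 17 from 25748613 to 25754378 (minus strand), Upk3b on chromosome 5 from 136038496 to 136046487 (plus), Wt1 on chromosome 2 from 105126529 to 105173616 (plus) and Lrrn4 on chromosome 2 from 132868305 to 132880891 (minus).

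The promoters of 4 mesothelial genes are shown so that the sequence next to the genes that chose or characterised these cells can be read beside their levels. Each is the 250 bases before the start of the RefSeq gene on GRCm38.p6, in the gene's own direction. Capitals mark 2 motifs that were searched on both strands, GGAATG (reverse complement CATTCC), the core recognised by the TEAD factors of the Hippo pathway, and GGGCGG (reverse complement CCGCCC), the GC box recognised by Sp factors. Upk3b is at chr5:136038246-136038495 (plus strand), Lrrn4 at chr2:132880863-132881112 (minus), Bnc1 at chr7:81992300-81992549 (minus) and Muc16 at chr9:18674604-18674853 (minus). These windows follow the RefSeq starts, whereas gene positions given elsewhere come from the GENCODE annotation, so the Lrrn4 window overlaps the 5′ end of the GENCODE gene.
Upk3b: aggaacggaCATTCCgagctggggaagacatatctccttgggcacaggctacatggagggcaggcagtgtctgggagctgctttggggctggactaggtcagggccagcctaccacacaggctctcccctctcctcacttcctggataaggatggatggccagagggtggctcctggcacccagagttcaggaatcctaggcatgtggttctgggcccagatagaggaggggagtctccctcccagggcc
Lrrn4: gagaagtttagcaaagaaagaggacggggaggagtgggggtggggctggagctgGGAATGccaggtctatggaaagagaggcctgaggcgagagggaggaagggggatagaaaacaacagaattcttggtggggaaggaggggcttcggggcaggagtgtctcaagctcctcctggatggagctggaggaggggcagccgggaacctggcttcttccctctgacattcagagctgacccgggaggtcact
Bnc1: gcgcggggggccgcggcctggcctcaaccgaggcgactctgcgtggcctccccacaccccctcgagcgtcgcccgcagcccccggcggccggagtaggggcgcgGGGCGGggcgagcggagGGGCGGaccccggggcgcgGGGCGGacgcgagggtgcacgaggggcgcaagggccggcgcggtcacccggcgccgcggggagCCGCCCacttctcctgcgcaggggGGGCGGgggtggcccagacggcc
Muc16: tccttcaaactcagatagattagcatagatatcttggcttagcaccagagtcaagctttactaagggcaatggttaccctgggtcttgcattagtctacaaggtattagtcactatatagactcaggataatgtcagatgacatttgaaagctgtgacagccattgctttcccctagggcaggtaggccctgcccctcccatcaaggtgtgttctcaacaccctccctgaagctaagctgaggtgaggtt
The TEAD letters occurred once in each of the Upk3b and Lrrn4 windows and in neither of the Bnc1 and Muc16 windows, and the Bnc1 window held 5 GC boxes. Over 32851 promoter windows of the same length in the table, 12.6% held GGAATG and 32.7% held GGGCGG. Of 17 mesothelial markers that the gate did not use, 12 matched the table, and 2 of these (Cldn15 and Gpm6a) held the TEAD letters and 3 (Bnc1, Cldn15 and Krt7) a GC box. Of the 12 leading genes named below, 8 matched, none held the TEAD letters and 3 held a GC box. A match is a stretch of letters, and binding was not measured. Msln and Wt1 had no entry in the table.

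Members were far more frequent in library 2. Library 1 held 64 members among 12736 barcodes, a share of 0.503% (95% Clopper-Pearson interval 0.387 to 0.641), and library 2 held 640 among 9408, a share of 6.80% (6.30 to 7.33). The mean was 3.65% ± 4.45 (SD, n = 2), so the spread between libraries was larger than the mean. Barcodes in which Ttn and Ryr2 reached 2% were 65.0% of library 1 and 28.2% of library 2. Whether the tissue piece or the handling differed between the libraries was not tested. Most values for members below come mainly from library 2. The summed members held 297621 UMIs in library 1 and 3908041 in library 2, with medians of 3454 and 5202 UMIs per barcode.

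Gate transcripts were plentiful in most members. Of the summed UMIs, Msln made up 1374 CPM (counts scaled to 1000000 per summed class) in library 1 (exact Poisson interval 1244 to 1514) and 1156 in library 2 (1123 to 1191). Upk3b was at 1287 and 938 CPM, Wt1 at 444 and 741 CPM, and Lrrn4 at 309 and 316 CPM. The intervals cover counting error only. Msln and Upk3b were a little lower in library 2, while Wt1 was higher there and Lrrn4 was alike. The median member had 7.5 gate UMIs in library 1 and 14 in library 2, with highest values of 97 and 162. Msln and Upk3b were at 0 in the fibroblast, endothelial, pericyte and macrophage classes because those classes were defined without them. Wt1, which the definition left free in those classes, was at 109 and 87.6 CPM in the endothelial class and at 8.05 and 24.6 CPM in fibroblasts. With every cell thinned to 1000 UMIs, Wt1 was seen in 37.5% of members of library 1 and 49.8% of library 2, in 9.11% and 8.30% of endothelial barcodes, and in 0.776% and 2.33% of fibroblast barcodes.

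Exactly 3 gate UMIs were found in 8 members of library 1 and 30 of library 2, and the 17 mesothelial markers outside the gate summed to 1949 and 3105 CPM in them. Just outside, 10 and 71 barcodes held exactly 2 gate UMIs with Msln or Upk3b, and the same markers summed to 376 and 1476 CPM there. Another 9 and 50 barcodes held at least 3 gate UMIs but no Msln or Upk3b, and the sum was 0 CPM in those of library 1 and 2641 CPM in those of library 2. In the 30 and 445 members with at least 10 gate UMIs the sum was 8746 and 9587 CPM. Another 17 and 68 barcodes met the marker rule but had Ttn and Ryr2 at 2% or more, with a marker sum of 1851 and 2602 CPM.

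Markers that played no part in the choice were compared next. For this and all later tests, counts were summed per library for the members, for fibroblasts (at least 3 UMIs of Pdgfra, Dcn, Col1a2 and Abca8a, none of Msln or Upk3b), and for endothelial, pericyte and macrophage barcodes, and fitted with edgeR with library as a block. A gene is called higher or lower at a Benjamini-Hochberg adjusted p under 0.05 and at least 2-fold. Some lists below also have counts at an unadjusted p, or by DESeq2, a second test. Those counts have no share over all genes beside them and cannot be set against a background. Differences are log2 values, members minus fibroblasts, and the p-values measure only the spread among sums of these 2 libraries, part of which may be technical. Of 17 independent markers, 15 were tested and 15 were called higher, with a median log2 difference of 6.40, beside a background of 9.93% of 12418 genes called higher and a median of 0.00 over all genes. All 15 were also called higher than the mean of the endothelial, pericyte and macrophage classes, where 14.2% of genes were called higher. Calb2, the gene of the mesothelial marker calretinin, had no UMI in members of either library, a count of 0 that leaves room for 0.768 CPM in library 2. Slpi, at 6.72 and 4.86 CPM, was too low to be tested. Genes with low counts were filtered out before the test, and a marker near 0 in the other classes passed only by being high in members. The count of 15 of 15 was therefore partly fixed by this filter and is a description, not a check of the label. The same limit holds for list genes below that are near 0 outside the members.

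**Figure D1:**
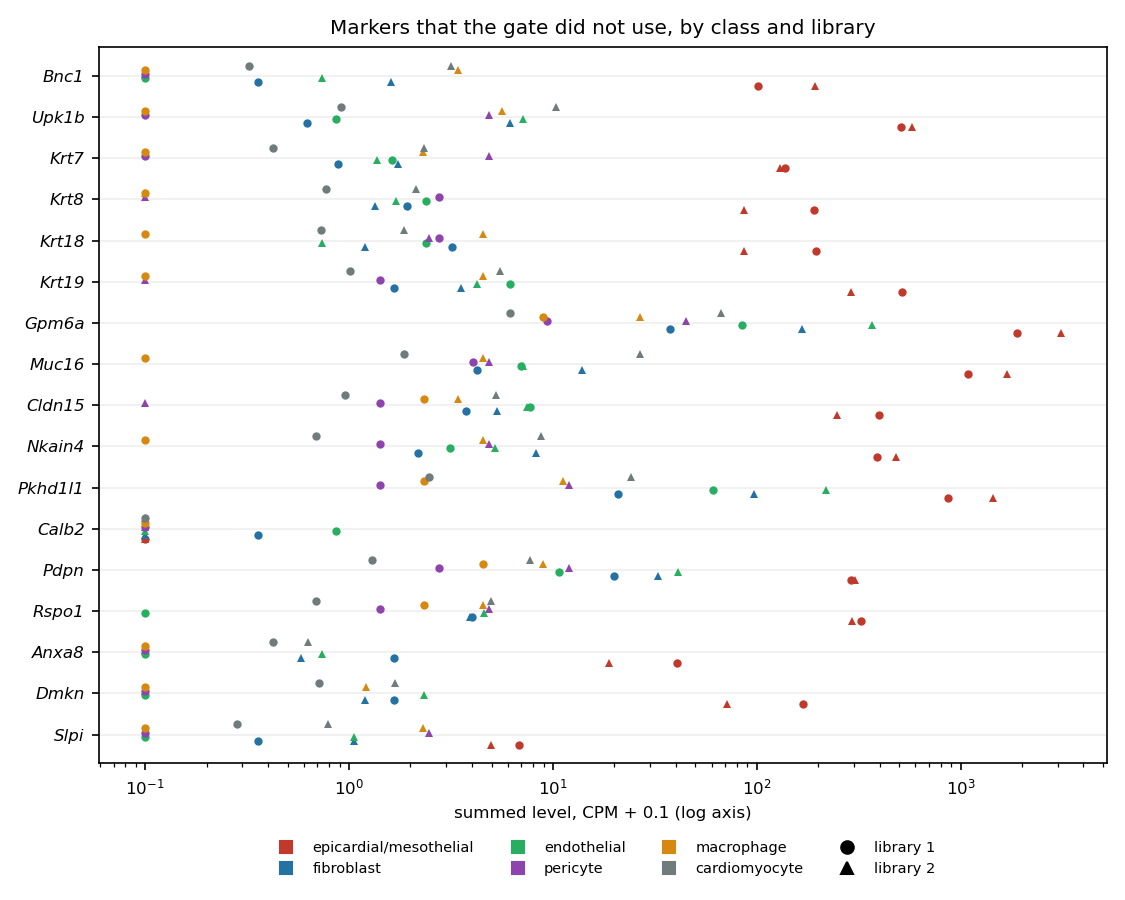
Summed level of each of 17 mesothelial markers that the gate did not use, in CPM plus 0.1 on a log axis, for 6 classes (colours) in library 1 (circles) and library 2 (triangles). Members lie to the right of every other class in both libraries for each marker except Calb2, which was at or near 0 in every class.

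Among these markers, the tetraspan-like membrane protein gene Gpm6a had the highest level, 1878 CPM in library 1 and 3111 CPM in library 2. Fibroblasts had 37.4 and 167 CPM, a log2 difference of 5.06 (SE 0.34, edgeR adjusted p = 2.79e-07). Muc16, the gene of the large surface mucin CA125, was at 1082 and 1684 CPM in members against 4.15 and 13.8 CPM in fibroblasts. Pkhd1l1, which encodes a large membrane protein, was at 864 and 1441 CPM against 20.8 and 96.3 CPM. Gpm6a and Pkhd1l1 were also found in the endothelial class, at 367 and 218 CPM in library 2, and the fibroblast class of that library overlapped with the endothelial gate. Without barcodes that passed several gates, the log2 differences from fibroblasts grew to 7.62 for Gpm6a and 7.23 for Pkhd1l1. All 3 genes were higher in library 2 than in library 1 members.

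The keratins of simple epithelia went the other way between libraries. Krt19 was at 517 CPM in members of library 1 and 289 CPM in library 2, Krt8 at 192 and 86.2 CPM, and Krt18 at 195 and 86.5 CPM. Krt7 was nearly level, at 138 and 131 CPM. Fibroblasts stayed at or below 3.43 CPM for all 4 keratins in both libraries. The log2 difference was 7.05 for Krt19 (SE 0.37, edgeR adjusted p = 4e-08), 6.40 for Krt8, 6.22 for Krt18 and 6.63 for Krt7. After thinning to 1000 UMIs per cell, Krt8 was seen in 9.38% and 8.21% of members, against 0.212% and 0.136% of fibroblast barcodes. These Krt8 shares were close between libraries. With 64 members in library 1 they are too coarse to show whether the CPM gap was present in them.

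**Figure D2:**
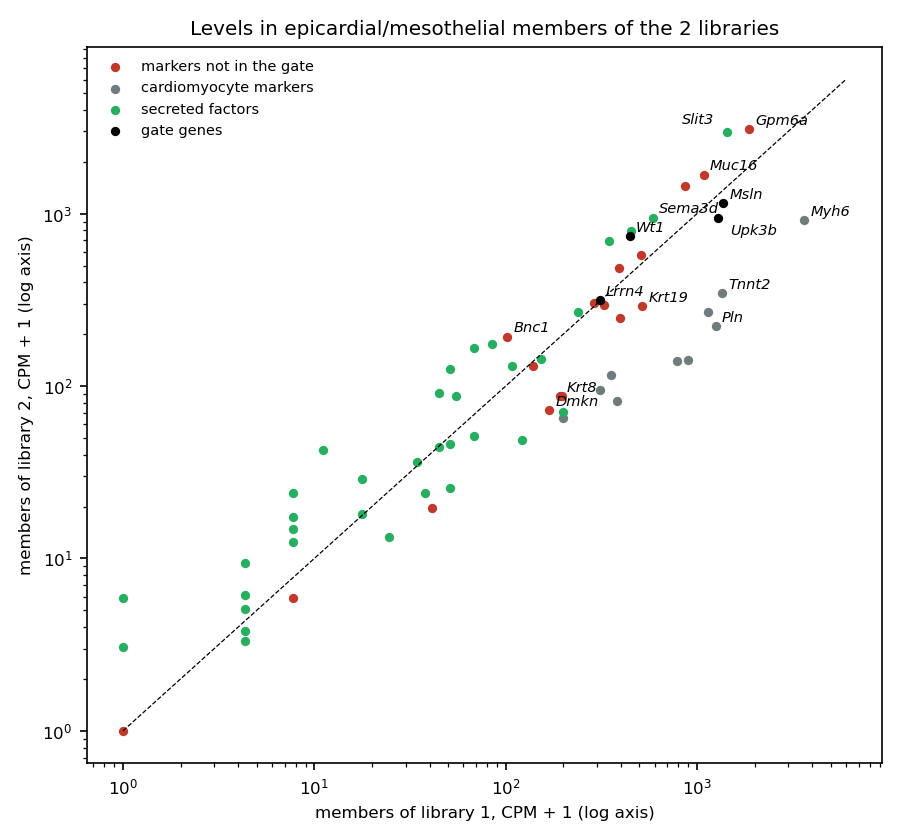
Levels in members of library 1 (x axis) and library 2 (y axis), in CPM plus 1 on log axes, 1 point per gene, with the dashed line marking equal levels. Mesothelial markers lie on both sides of the line (Gpm6a 1878 and 3111 CPM, Krt8 192 and 86.2 CPM), while the 10 cardiomyocyte markers lie below it (Myh6 3646 and 921 CPM).

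Across all genes, 1233 of 12418 were called higher in members than in fibroblasts (9.93%) and 888 lower (7.15%). Without library as a block the counts were 653 (5.26%) and 312 (2.51%). The 12 largest differences among genes of at least 50 CPM in members of both libraries ran from 8.20 down to 6.95 on the log2 scale. They were Gm29266, Fam83b, Muc16, Upk1b, Lrp2, Bnc1, Chst4, Il18r1, Slc26a3, Krt19, Cdh3 and Plet1. The list thus joins a mucin, a uroplakin, the endocytic receptor megalin (Lrp2), the mesothelial transcription factor basonuclin 1 (Bnc1), a sulfotransferase (Chst4), an interleukin 18 receptor chain (Il18r1), an anion exchanger (Slc26a3), a keratin and P-cadherin (Cdh3). The largest difference was that of Gm29266, a gene model on chromosome 14 from 60485208 to 60599031 (plus strand), at 326 and 473 CPM in members and 0.779 and 1.85 CPM in fibroblasts. The model overlaps Gm47810 on the other strand, and strand-specific counting is not stated, so reads of the pair may be mixed.

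Fibroblast levels of these leading genes rest on few transcripts. Bnc1, on chromosome 7 from 81966672 to 81992292, gave 30 and 753 UMIs in members (101 and 193 CPM) and 1 and 22 UMIs in fibroblasts (0.260 and 1.51 CPM), a log2 difference of 7.25 (SE 0.33, edgeR adjusted p = 3.66e-08). Upk1b gave 152 and 2257 UMIs in members and 2 and 88 in fibroblasts, a log2 difference of 7.36 (SE 0.47). Lrp2 was at 292 and 298 CPM in members and 2.08 and 1.99 CPM in fibroblasts. Fam83b was at 50.4 CPM in members of both libraries and gave 3 and 1 UMIs in fibroblasts. In each of these genes the members of both libraries lay above both fibroblast sums. Bnc1, Muc16 and Plet1 overlap another gene on the opposite strand.

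Genes lower in members included the Schwann and fibroblast cadherin Cdh19, at 3.36 and 15.6 CPM against 181.5 and 177 CPM, a log2 difference of -3.67 (SE 0.31, edgeR adjusted p = 2.01e-06). Ebf2, a transcription factor gene, was at 57.1 and 151.5 CPM in members against 1156 and 1236 CPM in fibroblasts (-3.42). The basement membrane zone collagen gene Col15a1 was at 26.9 and 74.7 CPM against 431 and 655 CPM (-3.23). Also among the 8 largest were D630003M21Rik, Col27a1, Hmcn2 and Arhgap24, from -3.47 to -3.26. Ebf2, D630003M21Rik, Arhgap24 and Col15a1 overlap genes on the opposite strand.

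Transcription factors of the epicardial and mesenchymal lineages were divided. Of 17 tested genes, 3 were called higher and 8 lower, beside 9.93% and 7.15% of all genes, with a list median of -0.38. Gata5 was at 26.9 and 35.3 CPM in members and at 0.519 and 0.754 CPM in fibroblasts, a log2 difference of 5.61 (SE 0.47, edgeR adjusted p = 3.81e-06). Tbx18, a T-box gene of the embryonic epicardium, was at 141 and 237 CPM against 39.0 and 38.3 CPM (2.42), and the pericyte class, where it is also known, had 47.7 and 71.0 CPM. Klf4 was at 208 and 115 CPM against 53.8 and 72.6 CPM (1.31). Gata4 and Gata6 differed by 0.44 and 0.65 and were not called (edgeR adjusted p = 0.316 and 0.187).

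The lower factors included some that drive mesenchymal programmes. Zeb1, a repressor of epithelial genes, was at 363 and 642 CPM in members and 1929 and 2801 CPM in fibroblasts, a log2 difference of -2.15 (SE 0.23, edgeR adjusted p = 1.9e-05). Zeb2 differed by -2.11, Sox9 by -1.78 and Tbx20 by -1.62. Tcf21, which marks the fibroblast lineage of the epicardium, was at 13.4 and 16.6 CPM in members and 42.6 and 33.5 CPM in fibroblasts (-1.04, edgeR adjusted p = 0.0166). That call was lost with DESeq2 (adjusted p = 0.0986), and without the library block edgeR lost the calls of Tcf21 (adjusted p = 0.0998) and Sox9 (adjusted p = 0.18). Members of both libraries lay below both fibroblast sums for each of these 5 genes, although not at 0. Against the mean of the endothelial, pericyte and macrophage classes, 8 of the 17 genes were called higher and 2 lower, beside backgrounds of 14.2% and 5.27%. Zeb2 was lower there too, at -2.24, but Zeb1 (-0.02), Sox9 (1.28) and Tbx20 (0.81) were not called and Tcf21 was called higher (2.32). Against fibroblasts, the mesenchymal factor gene Twist2 was not called (-0.14), and Snai1, Snai2 and Twist1 were not tested.

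Of 12 tested retinoid genes, 3 were called higher and none lower by edgeR or DESeq2, beside edgeR backgrounds of 9.93% and 7.15%. At an unadjusted edgeR p under 0.05, 1 was lower, a count with no share over all genes beside it. Aldh1a2, which makes retinoic acid from retinaldehyde, was at 212 and 324 CPM in members, 43.4 and 49.98 CPM in fibroblasts, and at most 11.8 CPM in the other classes. The log2 difference from fibroblasts was 2.62 (SE 0.25, edgeR adjusted p = 6.01e-06). Aldh1a1, a second enzyme for the same step, differed by 1.39. Rarres2, the gene of the chemoattractant chemerin, was at 1240 and 1176 CPM against 102 and 66.0 CPM, a log2 difference of 3.96 (SE 0.28). The receptor genes Rara, Rarb, Rarg and Rxra differed by 0.03, -0.51, 0.26 and 0.48 and were not called.

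Of 16 tight junction and polarity genes tested, 11 were called higher, beside 9.93% of all genes. None was called lower by edgeR or DESeq2, beside 7.15% of all genes in edgeR. At an unadjusted edgeR p under 0.05, with no share over all genes given, 1 was lower. The list median was 1.81. Some of these genes were near 0 outside the members and could be tested only by being high in members. Cgn, which encodes the junction plaque protein cingulin, was at 30.2 and 51.9 CPM in members and 0.519 and 0.411 CPM in fibroblasts, a log2 difference of 6.70 (SE 0.48, edgeR adjusted p = 1.03e-06). Crb2, an apical polarity gene, was at 60.5 and 71.1 CPM against 1.30 and 1.17 CPM (5.89). The junction membrane protein genes Marveld3 (5.52) and Cldn3 (5.05) were at 12.3 to 23.5 CPM in members and at most 1.04 CPM in fibroblasts. Tjp1, the widely expressed scaffold ZO-1, differed by 0.42 and was not called (edgeR adjusted p = 0.342).

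Of 15 tested adherens junction and desmosome genes, 5 were called higher and 1 lower, beside 9.93% and 7.15% of all genes. The list median was 0.61. Cdh3, the gene of P-cadherin, was at 134 and 294 CPM in members against 1.82 and 2.12 CPM in fibroblasts, a log2 difference of 7.0 (SE 0.34, edgeR adjusted p = 2.35e-08). Cdh11, a mesenchymal cadherin gene, was at 591 and 1155 CPM against 109 and 528 CPM (1.85). Without barcodes of several gates the Cdh11 difference was 4.03, and without the library block it was 1.58 and not called (edgeR adjusted p = 0.462). Of the nectin genes, Nectin2 was higher at 2.52, Nectin3 was at -0.16 and not called, and Nectin1 was lower at -1.14. The Nectin1 call was lost with every cell thinned to 1000 UMIs (-0.99, edgeR adjusted p = 0.0751) and without the library block (edgeR adjusted p = 0.131). Cdh2, the gene of N-cadherin, differed by -0.13 and was not called.

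The basement membrane list split by chain, with 8 of 22 tested genes called higher and 8 lower, or 5 and 8 with DESeq2. Over all genes, edgeR called 9.93% higher and 7.15% lower, and no DESeq2 share over all genes is given. Against the mean of the endothelial, pericyte and macrophage classes, edgeR called 11 of the 22 higher and 1 lower, beside 14.2% and 5.27% of all genes. The laminin chain genes Lama3 and Lama5 were higher by 3.62 and 2.75. Lama3 was at 70.6 and 97.0 CPM in members against 7.27 and 7.75 CPM in fibroblasts, and Lama5 at 175 and 119 CPM against 39.7 and 13.99 CPM. Itga3, an integrin chain that binds laminins, was at 128 and 102 CPM against 16.1 and 13.9 CPM (3.01, SE 0.25, edgeR adjusted p = 1.45e-06). Col4a6 was higher by 1.42. The other laminin chains Lama2, Lamb1 and Lamc1 were lower by log2 values of -2.39, -2.30 and -1.78, and the linker gene Nid1 by -2.14. Against the mean of the other classes these genes were not called (-0.02, 0.21, 0.37 and 0.19). Lama2 was at 628 and 483 CPM in members against 3082 and 3033 CPM in fibroblasts, and its call was lost without the library block (edgeR adjusted p = 0.0616). Itga6, not called at 0.28, was called at 2.20 (edgeR adjusted p = 1.43e-05) without barcodes of several gates.

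Of 22 interstitial matrix genes, 2 were called higher and 9 lower, beside 9.93% and 7.15% of all genes, with a median of -0.85. Mfap5, a microfibril gene, was at 30.2 and 46.1 CPM in members against 233 and 357 CPM in fibroblasts (-2.97, SE 0.26, edgeR adjusted p = 2.93e-06). Postn, the gene of the matricellular protein periostin, was at 20.2 and 26.6 CPM against 101 and 240 CPM (-2.92). Col1a1 was at 558 and 632 CPM in members against 439 and 473 CPM, and Col3a1 at 1986 and 3432 CPM against 1247 and 2072 CPM. Neither fibrillar collagen gene was called, with log2 differences of 0.47 and 0.79. Sparc (1.24) and Fbln1 (1.39) were higher in members, the former not without the library block (edgeR adjusted p = 0.0615). Set against the mean of the endothelial, pericyte and macrophage classes, 14 of these 22 matrix genes were called higher and 1 lower, beside backgrounds of 14.2% and 5.27%.

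**Figure D3:**
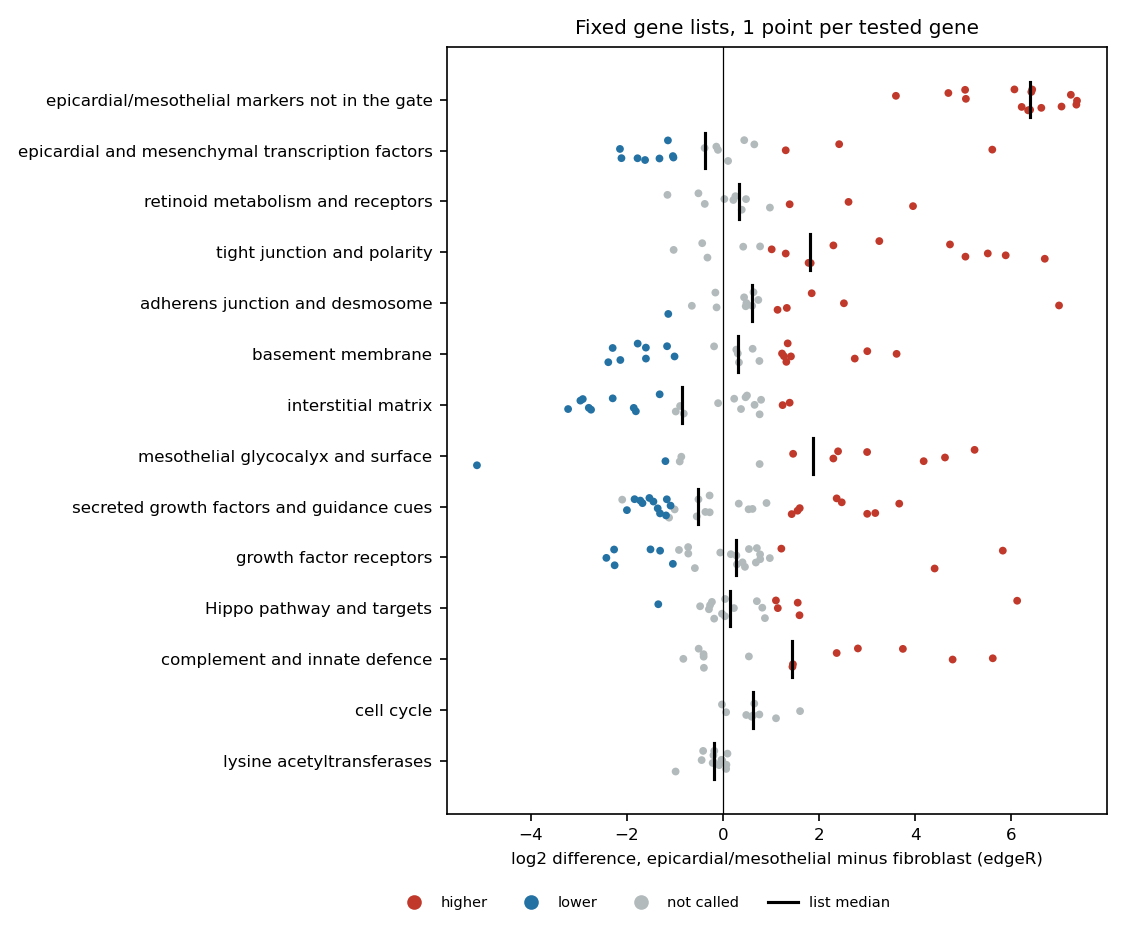
Log2 difference between members and fibroblasts for each tested gene of 14 lists, coloured by its call, with a black bar at each list's median. The independent mesothelial markers lie from 3.60 to 7.37, tight junction genes have a median of 1.81, and interstitial matrix genes one of -0.85.

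Surface and glycocalyx genes were mostly higher, 7 of 12 against 2 lower, beside 9.93% and 7.15% of all genes. The list median was 1.88. Efemp1, the gene of the secreted protein fibulin 3, was at 837 and 1180 CPM in members against 23.9 and 33.9 CPM in fibroblasts, a log2 difference of 5.24 (SE 0.36, edgeR adjusted p = 3.18e-07). Ezr, the gene of the microvillus linker ezrin, was at 692 and 654.5 CPM against 30.9 and 27.8 CPM (4.62). The hyaluronan synthase genes differed in direction. Has1 was at 118 and 56.6 CPM in members against 3.12 and 4.87 CPM in fibroblasts (4.18, SE 0.37). Has2 gave 0 and 2 UMIs in members and 37 and 301 UMIs in fibroblasts, so its lower call (edgeR adjusted p = 0.00038) carries no precise fold. Podxl was lower by -1.20, a call that was lost (-0.28, edgeR adjusted p = 0.681) without barcodes of several gates, and also without the library block (edgeR adjusted p = 0.133).

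Secreted factors were split between the classes. Of 31 tested growth factor and guidance genes, 8 were called higher and 11 lower, beside 9.93% and 7.15% of all genes. The list median was -0.51. Against the mean of the endothelial, pericyte and macrophage classes, 17 were called higher and 4 lower, beside backgrounds of 14.2% and 5.27%. Slit2, lower than in fibroblasts, was among those called higher there (1.45). Slit3, which encodes a ligand of Robo receptors, was the most abundant of those shown, at 1441 and 2960 CPM in members against 748 and 720 CPM in fibroblasts (1.60, SE 0.30, edgeR adjusted p = 0.00145). Without the library block the Slit3 call was lost (edgeR adjusted p = 0.0613). Slit2, its relative, was at 107.5 and 130.5 CPM against 400.4 and 458 CPM (-1.68). The receptor genes Robo1 and Robo2 were lower in members by log2 values of -2.26 and -2.43.

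The semaphorin gene Sema3d, known from the fetal epicardium, was at 585 and 948 CPM in members, 42.3 and 93.1 CPM in fibroblasts, and its log2 difference was 3.67 (SE 0.35, edgeR adjusted p = 5.26e-06). Sema3c differed by 2.37. Among Wnt ligands, Wnt5a was at 151 and 142.5 CPM against 24.2 and 17.3 CPM (3.0), and Wnt4 at 50.4 and 24.6 CPM against 8.05 and 5.07 CPM (2.47). Fgf9, an epithelial fibroblast growth factor, was at 16.8 and 17.1 CPM against 3.64 and 1.51 CPM (3.17), and was also found in the cardiomyocyte class. Fgf10 and Fgf7 were lower at -1.84 and -1.72, on 0 and 19 and on 1 and 11 UMIs in members, and neither call held with DESeq2 (adjusted p = 0.098 and 0.125). Pdgfd was at 346 and 695 CPM in members, above fibroblasts (138 and 244 CPM) and below the endothelial class (1122 and 1108 CPM). Without the library block edgeR lost the calls of Fgf9 (adjusted p = 0.0767), Fgf10 (0.147), Fgf7 (0.215) and Pdgfd (0.0534).

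**Figure D4:**
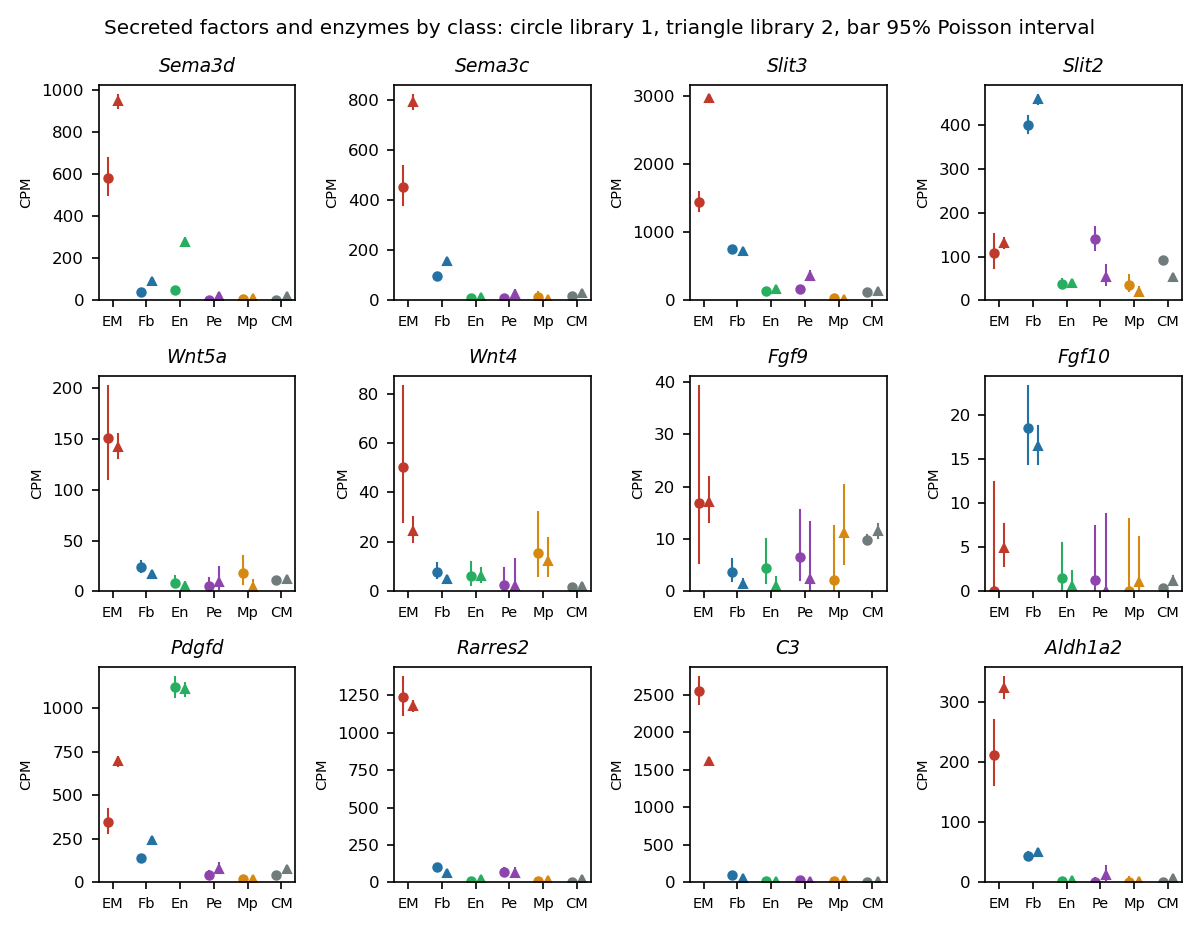
Level in CPM of 12 secreted factors and enzymes in members (EM), fibroblasts (Fb), endothelial (En), pericyte (Pe), macrophage (Mp) and cardiomyocyte (CM) barcodes, with circles for library 1, triangles for library 2 and bars for exact 95% Poisson intervals. Members have the highest levels of Sema3d, Sema3c, Slit3, Wnt5a, Wnt4, Rarres2, C3 and Aldh1a2 in both libraries, fibroblasts of Slit2 and Fgf10, and endothelial barcodes of Pdgfd.

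For Nrg1 the sign depended on which fibroblast barcodes were counted. Nrg1, the ErbB ligand known from endocardium, was at 43.7 and 90.3 CPM in members against 118 and 496 CPM in fibroblasts, a log2 difference of -2.0 (edgeR adjusted p = 0.000179). Of the fibroblast barcodes, 10.4% in library 1 and 29.2% in library 2 also passed the endothelial gate, and 21.5% and 39.6% passed at least 1 of the endothelial, pericyte and macrophage gates. Among members these last shares were 20.3% and 19.2%. Without barcodes of several gates the Nrg1 difference was 0.57 and not called (edgeR adjusted p = 0.183). Igf2, lower by -1.53, was then at -0.59 and not called (edgeR adjusted p = 0.0896). Neither gene was called without the library block (edgeR adjusted p = 0.127 for Nrg1 and 0.398 for Igf2). Over all genes, 1589 of 12481 were then called higher (12.7%) and 1094 lower (8.77%). Removing barcodes in this way selects on the gate genes of the other classes, so it also lowers transcripts that go with those genes.

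Of 25 tested receptor genes, 3 were called higher and 6 lower, beside 9.93% and 7.15% of all genes. Without barcodes of several gates these counts were 5 and 7, beside 12.7% and 8.77%. Against the mean of the endothelial, pericyte and macrophage classes they were 11 and 0, beside 14.2% and 5.27%. Bmpr1b, a bone morphogenetic protein receptor gene, was at 171 and 332 CPM in members against 7.27 and 4.04 CPM in fibroblasts, a log2 difference of 5.83 (SE 0.54, edgeR adjusted p = 4.5e-06). Met, the receptor of hepatocyte growth factor, was at 107.5 and 137 CPM against 4.93 and 7.20 CPM (4.41). Its ligand gene Hgf was not called at -2.10. Pdgfrb, a mural and fibroblast receptor gene, was lower by -2.27 and Egfr by -1.51, the latter not called without the library block (edgeR adjusted p = 0.0639). Against the mean of the other classes, Pdgfrb was not called (-0.65) and Egfr was called higher (1.07).

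Kdr, the VEGF receptor 2 gene and an endothelial marker, was as high in members as in endothelial barcodes. It was at 346 and 348 CPM in members, 344 and 326 CPM in the endothelial class and 33.5 and 51.3 CPM in fibroblasts. The log2 difference from fibroblasts was 3.12 (SE 0.20, edgeR adjusted p = 1.86e-07), and 5.41 without barcodes of several gates. Thinned to 1000 UMIs, Kdr was seen in 26.6% and 27.7% of members and in 28.8% and 25.1% of endothelial barcodes. Of the other 5 endothelial markers in the list, Tie1 and Emcn were lower in members than in fibroblasts (-1.02 and -1.68) and Tek, Egfl7 and Cldn5 were not called. Tie1 was at 30.2 and 31.2 CPM in members against 379 and 339 CPM in the endothelial class, and Emcn at 57.1 and 89.8 CPM against 624 and 912.5 CPM. Members thus held Kdr, but not Tie1 or Emcn, at the endothelial level. Without barcodes of several gates neither Tie1 nor Emcn was called.

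Of 18 tested Hippo pathway genes, 5 were called higher and 1 lower, beside 9.93% and 7.15% of all genes. Wwc1, which encodes the upstream regulator KIBRA, was at 242 and 312 CPM in members against 4.93 and 4.11 CPM in fibroblasts, a log2 difference of 6.13 (SE 0.32, edgeR adjusted p = 3.92e-08). The regulators Ajuba (1.59), Amotl2 (1.56), Wwc2 (1.14) and Lats2 (1.10) were also higher. Ctgf, a target of the pathway, was lower at -1.35, with 80.6 and 25.1 CPM in members against 156 and 80.4 CPM, and was not called without the library block (edgeR adjusted p = 0.386). The targets Cyr61 (0.71) and Ankrd1 (-0.23) were not called. The effector genes Yap1, Wwtr1, Tead1 and Tead3 were not called.

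Of 13 tested complement and innate defence genes, 7 were called higher and none lower by edgeR or DESeq2, beside edgeR backgrounds of 9.93% and 7.15%. At an unadjusted edgeR p under 0.05, with no share over all genes given, 1 was lower. The list median was 1.45. C3, the central component, was at 2554 and 1617 CPM in members against 101 and 62.2 CPM in fibroblasts, a log2 difference of 4.78 (SE 0.26, edgeR adjusted p = 5.46e-08). In both libraries its level in each of the other 4 classes was at most 35.8 CPM. C2 (5.62), Cfb (3.75), C4b (2.81), C1s1 (1.46) and C1ra (1.45) were higher too, as was Il33, an alarmin gene (2.37). The inhibitor genes Cd55, Cd59a, Cd46 and Serping1 were not called, at -0.51, -0.83, -0.40 and 0.54, although Serping1 was called higher than the mean of the endothelial, pericyte and macrophage classes (3.72).

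Transcripts of 14 cell cycle genes were sparse in members, with the libraries on opposite sides of fibroblasts. They summed to 33.6 CPM in members of library 1 and 159.9 CPM in library 2, against 87.2 and 97.1 CPM in fibroblasts. None of 9 tested cell cycle genes was called by edgeR or DESeq2, beside edgeR backgrounds of 9.93% higher and 7.15% lower. At an unadjusted edgeR p under 0.05, 3 were higher in members and none lower, counts with no share over all genes beside them. The list median was 0.63, and Cdk1 was at 1.61 (edgeR adjusted p = 0.0523), with 0 and 32 UMIs in members. Cluster 1 of the members, described below, gave 26 of these Cdk1 UMIs, in 4.21% of its barcodes. Without barcodes of several gates 2 of the 9 were called higher, beside 12.7% of all genes. Cdk1 was called higher there (edgeR adjusted p = 0.0325) and with no filter on low counts (0.0262). It was also called with Ttn and Ryr2 below 0.5% (0.029) and with a stricter cell filter and likely doublets removed (0.0333). Without the library block it was not called (0.329). With each cell thinned to 1000 UMIs, 1.56% of members in library 1 and 7.27% in library 2 had a UMI of any of 14 cell cycle genes, against 5.15% and 4.48% of fibroblast barcodes. Unthinned shares were 15.6% and 24.2% against 10.5% and 15.7%, at median depths of 3454 and 5202 against 2044 and 3300 UMIs. Of the 14 genes, 6 were at 0 in the members of library 1, where the depth cannot show them.

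The acetyltransferase genes targeted in the study were present at fibroblast levels. Ep300 was at 114 and 155 CPM in members and 130 and 164 CPM in fibroblasts (-0.01, SE 0.18, edgeR adjusted p = 0.975), and Crebbp at 343 and 497 CPM against 453 and 569 CPM (-0.18, SE 0.18, edgeR adjusted p = 0.559). Counts of 3' reads can lie outside a deleted exon, so these levels check no deletion. None of 13 acetyltransferase genes was called by edgeR or DESeq2, beside edgeR backgrounds of 9.93% higher and 7.15% lower. Of the 13, 1 had an unadjusted edgeR p under 0.05, with no share over all genes given. The table also holds a feature named GFP, which the labels do not explain. It gave 3 and 12 UMIs in members, or 10.1 CPM (Poisson interval 2.08 to 29.5) and 3.07 CPM (1.59 to 5.36). Fibroblasts were at 7.27 and 2.40 CPM and cardiomyocytes at 43.6 and 39.7 CPM.

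Transcripts of other cell types in members were measured with marker lists. The 10 cardiomyocyte markers summed to 10330 CPM in members of library 1 and 2392 CPM in library 2, against 10720 and 1975 CPM in fibroblasts. None of the 10 was called by edgeR or DESeq2, beside edgeR backgrounds of 9.93% higher and 7.15% lower. At an unadjusted edgeR p under 0.05, with no share over all genes given, there was 1. Myh6, the alpha myosin heavy chain gene, was at 3646 and 921 CPM in members and 3637 and 734 CPM in fibroblasts. The 6 macrophage markers summed to 118 and 172.5 CPM in members and 112 and 219 CPM in fibroblasts. The 4 pericyte markers summed to 50.4 and 38.1 CPM, with Higd1b and Vtn at 0 in library 1. Lymphocyte markers were at 26.9 and 33.8 CPM, with Cd3e at 0 in both libraries, and adipocyte markers at 3.36 and 0 CPM. Hepatocyte markers were at 23.5 and 0.512 CPM in members against 296 and 0.343 CPM in fibroblasts, and Alb differed by -4.66 on the log2 scale. The part of these transcripts in the differences above was not tested.

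Fibroblast transcripts were common in members. At least 3 UMIs of the fibroblast gate genes were found in 71.9% of members of library 1 and 88.0% of library 2. The 6 independent fibroblast markers summed to 3773 and 4718 CPM in members, against 7467 and 7525 CPM in fibroblasts and 429 and 558 CPM in the endothelial class. Scara5 and Gsn were lower in members by -3.04 and -2.47, Lum by -2.30 and Tcf21 by -1.04, while Col1a1 and Col3a1 were not. All 6 were called higher than the mean of the endothelial, pericyte and macrophage classes, beside 14.2% of all genes. A score against simulated doublets marked 0 of 64 members in library 1 and 79 of 640 (12.3%) in library 2, beside 5.64% and 5.24% of fibroblast barcodes. Its threshold was 0.236 for library 1, where it caught 33.2% of simulated pairs, and 0.206 for library 2, where it caught 56.6%. The 0 of 64 therefore cannot show that library 1 members were free of doublets. Without marked barcodes, 1337 of 12470 genes were called higher (10.7%) and 1030 lower (8.26%).

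Members were not uniform. Clustering of the 704 members gave 6 clusters, described here with no test because the clusters were made from the same counts. Clusters 1, 2 and 3, with 190, 179 and 170 members, had the highest summed levels of the independent mesothelial markers, at 10752, 12556 and 10044 CPM. Cluster 1 was led by Slurp1, Lgals7, Krt8, Dmkn and mitochondrial transcripts, and its median mitochondrial share was 1.35%, against 0.207% and 0.306% in clusters 2 and 3. It held 36 of the 64 members of library 1 (56.3%) and 154 of the 640 of library 2 (24.1%). Its C3 level was 3288 CPM, that of cluster 2 was 471 CPM and that of cluster 3 was 2089 CPM. Krt8 was at 229 CPM in cluster 1 and 56.1 and 53.5 CPM in clusters 2 and 3. Over all members the median mitochondrial share was 1.08% in library 1 and 0.332% in library 2.

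Clusters 2 and 3 differed in collagen and in leading genes. Cluster 2 was led by Pax9, Csmd1, Styk1, Lrrc31 and Scel, and had 199 CPM of Col1a1, 1463 CPM of Col3a1 and 853 CPM of Msln. Cluster 3 was led by Lsamp, Pappa, Gria3 and Cdkn1c, and had 721 CPM of Col1a1, 4497 CPM of Col3a1 and 991 CPM of Msln. The 6 fibroblast markers summed to 1861 CPM in cluster 2, against 6601 and 5438 CPM in clusters 1 and 3. Muc16 was highest in cluster 2 at 2781 CPM and Slit3 in cluster 3 at 4338 CPM. Kdr was at 479, 452 and 269 CPM in clusters 1, 2 and 3. Marked doublets in these 3 clusters were 0, 0 and 2 members. The score marked only 33.2% of simulated doublets in library 1 and 56.6% in library 2, and the source of the Kdr transcripts was not tested.

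**Figure D5:**
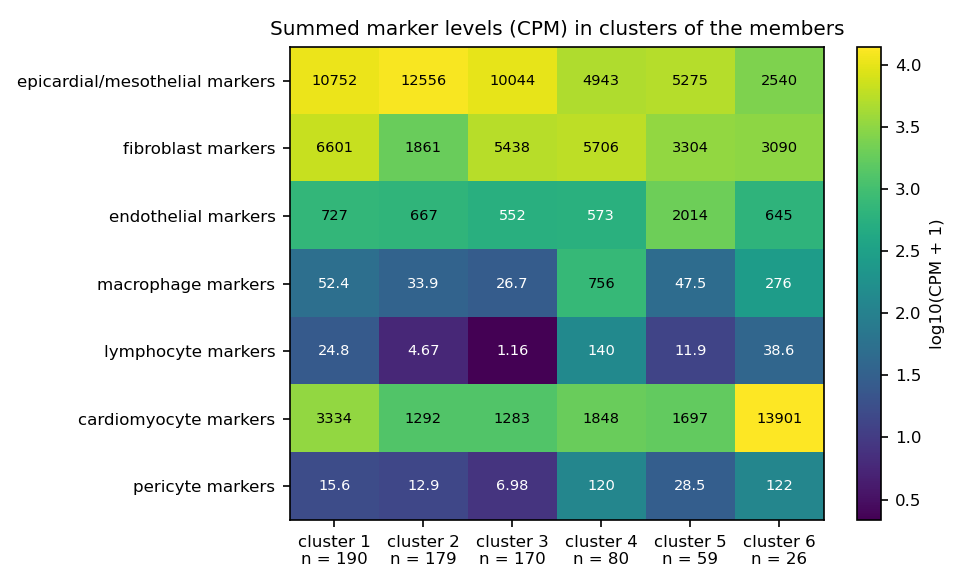
Summed level, in CPM, of 7 lists of marker genes in the 6 clusters of members, with the colour giving log10 of CPM plus 1. Clusters 1 to 3 have the most mesothelial marker transcripts (10044 to 12556 CPM), and clusters 4, 5 and 6 have the most macrophage (756 CPM), endothelial (2014 CPM) and cardiomyocyte (13901 CPM) marker transcripts.

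Clusters 4, 5 and 6 carried transcripts of other types beside mesothelial ones. Cluster 4, with 80 members, was led by Mrc1 and held F13a1 among its leading genes, which are macrophage genes. Its leading genes also held the general leukocyte gene Ptprc, Adamts19 and Scn7a, and 40 of its barcodes were marked as doublets. Mrc1 was found in 33.8% of its members and Scn7a in 52.5%. The lymphocyte markers summed to 140 CPM in cluster 4, against 1.16 to 38.6 CPM in the other clusters. The fibroblast gate genes summed to 3909 CPM in cluster 4, against 3235, 1088 and 2408 CPM in clusters 1, 2 and 3. Cluster 5, with 59 members, was led by Nrg1 and held Egfl7 and Ptprb, which are endothelial genes, and 47.5% were marked. Cluster 6, with 26 members, was led by Mhrt and held Ttn and Rbm20, which are cardiomyocyte genes, and 34.6% were marked. Their mesothelial marker sums were 4943, 5275 and 2540 CPM. Cluster 6 had a median of 11006 UMIs per barcode, against 4979 in cluster 1. Nrg1 in cluster 5 was at 556 CPM and at 34.9 CPM over the other members, and these 59 barcodes gave 234 of the Nrg1 UMIs, against 13 to 44 in each other cluster. Of all barcodes, 17 sequences occurred in both libraries, and 1 of them belonged to a member, in library 2.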

How the data were processed

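The deposited values were raw UMI counts per gene and barcode, and the file headers name Cell Ranger 6.0.0. Tools listed by the submitters in their processing notes are fastp, Trimmomatic, Seurat and edgeR, with build GRCm38. Library 1 held 12736 barcodes and 57982200 UMIs, library 2 held 9447 and 50199793, and the barcode suffix gave the library by the number in the sample title. The members, lists and gates were chosen with earlier results of these data known. Endothelial, pericyte and macrophage barcodes passed exactly 1 of their own gates and neither the member nor the fibroblast gate, a choice made after the files were seen.

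Sums of 5 classes in 2 libraries were fitted with edgeR 4.0.16 in R 4.3.3 (quasi-likelihood test, TMM, filterByExpr, Benjamini-Hochberg adjustment, 4 residual degrees of freedom). Library was the block, since each library is 1 suspension that holds all classes. Genes used by a gate were not tested, and some tested genes are not reported here. The fit was tested on simulated data. Named by rule were up to 4 list members each way by size and the 12 highest and 8 lowest calls at 50 CPM or more, and further list members were named after their values were seen. Doublets, scored against simulated ones (4.77% and 7.25% of barcodes marked), were kept in the main values. Members were clustered with leidenalg 0.10.2. Promoter sequences are from RefSeq. Alternatives included DESeq2 1.42.0, other scaling, filters and gates, and thinning to 1000 UMIs.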

Additional observations from a re-analysis of the deposited data

How the results depend on the processing

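Without the replicate block, calls against fibroblasts fell from 1233 to 653 higher and from 888 to 312 lower, and calls lower than the mean of the other 3 classes fell from 655 to 360. Removing barcodes of several gates raised the latter to 1066. The other counts of calls stayed within 1.5 times of their main value under DESeq2, no filter, total count scaling, the fit on 4 sums, stricter gates, cell filters and thinning. Log2 differences that reversed were Nrg1 (0.565) and Myh6 (-0.034) without barcodes of several gates, Myh6 (-0.009) with Ttn and Ryr2 below 0.5%, Ep300 (0.068) with gates of at least 5 UMIs, Cdk1 (range -1.49 to 1.32 with 1 library left out) and Itga6 (range -0.091 to 0.565 likewise), and the cause was not tested. Of these only Nrg1 was called in the main values. Of 113 named genes, 19 lost their call without the replicate block, 4 with DESeq2 and 3 (Podxl, Igf2 and Nrg1) without barcodes of several gates, and 4 of 104 with thinning. The mean share of members was 2.95% to 3.72% under other gates and filters, and 0.503% to 6.80% with 1 library left out. Each library alone gives values with no test. The 64 members of library 1 limit every value that library gives.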
